A study of Mus musculus with 15 samples.

Results

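The transcripts described here are those of the mouse mitochondrial genome, taken as every row of the deposited gene count table whose chromosome is MT. The rule took 37 of 46078 genes, of which 13 encode proteins, 2 are ribosomal RNAs (rRNAs) and 22 are transfer RNAs (tRNAs), which is the full annotated set. Their levels were followed in 15 RNA-seq libraries of retinal pigment epithelium (RPE), the pigmented layer that lies behind the photoreceptors and engulfs their shed outer segments. RNA from female mice at postnatal day 14 was collected from 2 hours after light onset, and polyadenylated RNA was selected with oligo-dT beads before random-primed cDNA synthesis. Every library has a strain label naming a mixture of c57Bl/6J and B6;129-Mertktm1Grl/J. The 4 Mertk KO libraries are labelled as knockouts for Mertk, a receptor tyrosine kinase that the RPE uses to take up outer segments, and the 4 Mertk WT libraries are labelled wild type for it. The Bai1 Tg pos group (3 libraries) and the Bai1 Tg neg group (4) are both wild type for Mertk, with and without a transgene for Bai1 (gene symbol Adgrb1), an adhesion receptor for phosphatidylserine on dying cells. The labels do not name the promoter or the species of the transgene.

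Mitochondrial DNA is transcribed from both strands as long precursors, and the tRNAs that lie between most of the other genes are cut out to release the mRNAs and rRNAs. The 13 mRNAs encode core subunits of respiratory complexes I, III and IV and of the ATP synthase, complex V, which work only together with subunits made from nuclear genes. Most mitochondrial mRNAs carry a short poly(A) tail, whereas tRNAs end in an added CCA and carry none in their mature form, so an oligo-dT library does not sample the 3 classes alike. In the RPE, mitochondria supply the energy for outer segment digestion and for transport between the choroid and the retina.

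Before the results, the libraries were compared with their labels. Total counts were 9591129 to 20024507 fragments per library. Mertk was at 155 to 196 CPM (counts scaled to library size with TMM factors over all 15 libraries) in Mertk KO and at 233 to 262 CPM in Mertk WT, without overlap. The sources used here do not give the exons that the allele lacks, and counts cover the whole gene, so the check is limited. Adgrb1 was at 166 to 170 CPM in Bai1 Tg pos and 0 to 0.142 CPM in libraries 1 to 3 of Bai1 Tg neg, but at 143.5 CPM in the library labelled Bai1 Tg neg 4, against its label, so results of the Bai1 comparison are given with and without that library. The RPE markers fixed for the check were all detected, with Rpe65, the retinoid isomerase of the RPE, at 4175 to 6667 CPM. Rod photoreceptor markers summed to 1024 to 1694 CPM in Mertk KO, 940 to 3895 in Mertk WT, 271 to 830.2 in Bai1 Tg pos and 209.9 to 494 in Bai1 Tg neg, so every Bai1 library lay below every Mertk library. Nothing in the labels states that replicates are separate animals, and p-values measure only the spread between these libraries.

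The mitochondrial mRNAs fell into 2 levels of counts, and the low level coincided with a stretch that has a nearly identical copy in nuclear DNA. On chromosome 1 (GRCm38, 24611535 to 24616197, minus strand) lie 7 annotated pseudogenes in the same order as mitochondrial bases 6390 to 11042. Aligned to the mitochondrial transcripts, they were 99.71 to 100% identical over 294 to 876 bases. A 60-base window from each of 4 pairs of a mitochondrial gene and a copy is given to show how alike they are. A fragment from bases that do not differ can match both places. Each is written 5′ to 3′ on the sense strand from the GENCODE M21 transcripts of GRCm38, and capitals mark the bases that differ within a pair. The first pair is the start of mt-Co2 (MT 7013 to 7072) and of Gm28661 (chromosome 1, 24615506 to 24615565).
mt-Co2: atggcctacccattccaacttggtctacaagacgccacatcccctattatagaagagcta
Gm28661: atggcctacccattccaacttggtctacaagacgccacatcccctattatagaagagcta
The next pair is the start of mt-Nd3 (MT 9459 to 9518) and of Gm28438 (chromosome 1, 24613060 to 24613119).
mt-Nd3: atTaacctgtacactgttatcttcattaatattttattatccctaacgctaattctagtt
Gm28438: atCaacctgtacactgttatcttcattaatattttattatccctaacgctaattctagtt
The third pair is from mt-Co1 (MT 6381 to 6440) and Gm29216 (chromosome 1, 24616138 to 24616197), at the end of the copied stretch.
mt-Co1: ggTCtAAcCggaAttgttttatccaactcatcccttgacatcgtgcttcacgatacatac
Gm29216: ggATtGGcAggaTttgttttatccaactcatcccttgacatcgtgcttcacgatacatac
The last pair is from mt-Co1 (MT 5787 to 5846) and Gm13340 (chromosome 2, 22589129 to 22589188), which matches all 1545 bases of mt-Co1 at 97.6% identity.
mt-Co1: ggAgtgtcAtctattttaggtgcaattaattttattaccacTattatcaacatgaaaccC
Gm13340: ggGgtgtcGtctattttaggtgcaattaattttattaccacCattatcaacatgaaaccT
Between mt-Co2 and Gm28661 the 60 bases do not differ. Counting from 1 at the 5′ end of the mitochondrial gene, the mt-Nd3 pair differs by T3C. At the edge of the stretch the mt-Co1 pair differs by T1056A, C1057T, A1059G, A1060G, C1062A and A1066T, and does not differ in the rest of the window. Against Gm13340 the differences A462G, A468G, T501C and C519T are spread over the window, which was chosen for the most differences among those scanned.

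The 6 mRNAs that lie wholly within the copied stretch were nearly without counts. mt-Co2 and mt-Co3, catalytic-core subunits of cytochrome c oxidase (complex IV), stood at 1.57 ± 0.676 CPM (SD, n = 15) and 2.04 ± 0.954 CPM. mt-Atp6, the proton-channel subunit of ATP synthase, was at 1.15 ± 0.841 CPM and its partner mt-Atp8 at 0.154 ± 0.265 CPM. The complex I subunits mt-Nd3 and mt-Nd4l were at 1.37 ± 0.600 CPM and 0.371 ± 0.667 CPM. These 6 together held 48 to 162 counts per library, and per kilobase of gene they were at 0.754 to 3.94 CPM. The 5 mRNAs that lie wholly outside the stretch stood at 1623 to 4100 CPM per kilobase, so the classes did not overlap.

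The 2 mRNAs that cross its borders kept high counts. mt-Co1 matches Gm29216 only from base 1063 to its end at base 1545, and mt-Nd4 matches Gm28439 from its start to base 876 of 1378. mt-Atp8 has no annotated pseudogene of its own, and the chromosome 1 bases that face it (24614609 to 24614812, between copied neighbours) were not aligned here, apart from the part of Gm10925 that mt-Atp6 shares. The 7 chromosome 1 pseudogenes themselves held 120 to 268 counts per library, 2917 in all libraries, with Gm29216 at 732, Gm28437 at 622, Gm28661 at 590 and Gm10925 at 577. For the 5 wholly copied genes with an annotated copy, gene and copy were thus both low, while mt-Nd1, which has no such copy, held 17913 to 59148 counts per library.

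The file header lists no option to count fragments that map to more than 1 place or that overlap more than 1 gene, and the program leaves such fragments out by default. Counts of mt-Co2, mt-Co3, mt-Atp6, mt-Atp8, mt-Nd3 and mt-Nd4l are therefore uncertain as levels, and so is any change in them. Genes also touch or overlap, by 43 bases for mt-Atp8 and mt-Atp6, 7 for mt-Nd4l and mt-Nd4, and 14 for mt-Nd5 and mt-Nd6, which are on opposite strands. What share of fragments was left out for either reason was not tested, since reads were not analysed here. The less similar chromosome 2 copy Gm13340 of mt-Co1 held 1014 counts over all libraries, against 1782149 for mt-Co1.

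**Figure D1:**
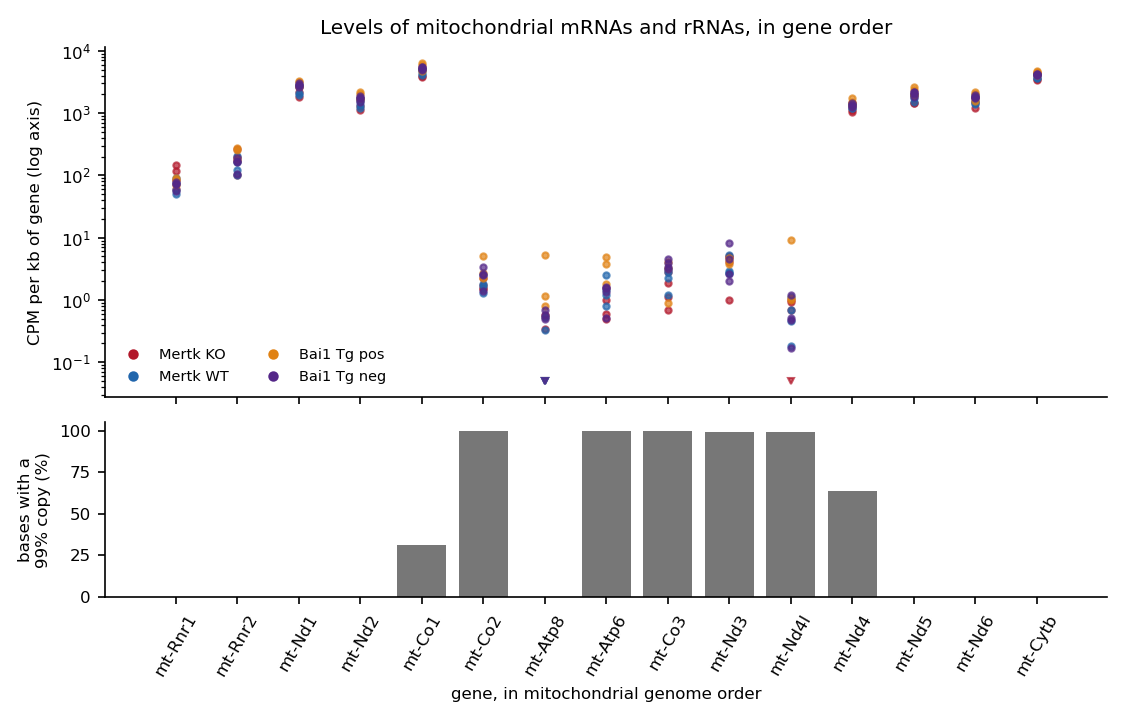
Level of each mitochondrial mRNA and rRNA in CPM per kilobase of gene on a log axis (upper plot, 1 point per library, coloured by group, genes in genome order) and the percent of its bases with a nuclear transcript copy of at least 99% identity (lower plot). Libraries with 0 counts are drawn as triangles at the foot of the axis. mt-Co2 to mt-Nd4l lie at a mean of 0.754 to 3.94 CPM per kilobase, where 5 of those 6 genes have a copy over nearly all their bases.

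Among the mRNAs with high counts, mt-Co1, the catalytic subunit of complex IV, was the most abundant. Its level was 7677 ± 1070 CPM (n = 15), which ranked 7 among all genes of the table. mt-Cytb, the only complex III subunit made in mitochondria, was at 4690 ± 436 CPM (rank 15). Of the complex I subunits, mt-Nd5 was at 3542 ± 582 CPM, mt-Nd1 at 2520 ± 425, mt-Nd4 at 1849 ± 228 and mt-Nd2 at 1684 ± 298 CPM. mt-Nd6, the sole mRNA annotated on the minus strand, was lowest of the 7 at 889 ± 139 CPM (rank 123). These 7 mRNAs held 97.4 to 98.9% of the mitochondrial counts in each library, with the copied mRNAs nearly without counts.

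Levels were compared between genes per kilobase of bases without a 99% copy, which leaves 1062 bases of mt-Co1 and 502 of mt-Nd4 and takes the copied bases as giving no counts. On that scale mt-Co1 was at 7229 ± 1007 CPM per kilobase, mt-Cytb at 4100 ± 381, mt-Nd4 at 3683 ± 454, mt-Nd1 at 2633 ± 444, mt-Nd5 at 1942 ± 319, mt-Nd6 at 1712 ± 269 and mt-Nd2 at 1623 ± 287. Each stood above the next in 15 of 15 libraries, except mt-Nd5 over mt-Nd6 in 14 of 15 and mt-Nd6 over mt-Nd2 in 12 of 15, so the order of those last neighbours is not firm. Per kilobase of the whole gene mt-Nd4 would be last of the 7, at 1342 CPM per kilobase. mt-Nd6 and mt-Nd5 share bases on opposite strands and counting was unstranded, so RNA from either strand at mt-Nd6 cannot be told apart. Between libraries the CPM of a given mRNA varied little, with the highest library 1.39 times the lowest for mt-Cytb and up to 1.89 times for mt-Nd2.

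The rRNAs of the mitochondrial ribosome were low beside the mRNAs. mt-Rnr2, the large-subunit 16S rRNA, was at 282 ± 89.6 CPM, and mt-Rnr1, the small-subunit 12S rRNA, at 77.4 ± 23.9 CPM. Per kilobase that is 178 ± 56.7 and 81.0 ± 25.1 CPM, below mt-Nd2, the lowest of those mRNAs, in 15 of 15 libraries. Together they held 0.963 to 2.33% of the mitochondrial counts. They varied more between libraries than the 7 abundant mRNAs did, with the highest library at 2.71 times the lowest for mt-Rnr2 and 2.89 times for mt-Rnr1. These levels were measured after poly(A) selection, so they do not give the rRNA content of the mitochondria.

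The tRNAs held 0.187% of all mitochondrial counts, and a few genes held most of those. mt-Tp, the proline tRNA at the end of the annotated genes, had 3804 counts over the 15 libraries (16.4 ± 4.74 CPM), mt-Te, for glutamate, 2167 (9.36 ± 5.44 CPM) and mt-Tc, for cysteine, 1184 (5.01 ± 3.24 CPM), which is 70.8% of tRNA counts. The first 2 are printed here 5′ to 3′ on their own strand (MT 15356 to 15422 and MT 14071 to 14139, both minus, from GENCODE M21 on GRCm38), because they carry most of the tRNA signal.
mt-Tp: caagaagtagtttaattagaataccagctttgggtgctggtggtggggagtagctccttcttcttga
mt-Te: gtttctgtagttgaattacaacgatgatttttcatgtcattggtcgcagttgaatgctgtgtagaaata
mt-Tl1 and mt-Ta followed at 2.79 ± 1.03 and 2.81 ± 2.30 CPM, and mt-Tn, mt-Tw, mt-Tm and mt-Ty at 1.63 ± 0.737, 1.59 ± 0.782, 1.29 ± 0.809 and 1.00 ± 0.654 CPM. The 8 tRNAs annotated on the minus strand held 83.8% of tRNA counts (8467), against 1634 for the 14 on the plus strand. The other 13 tRNAs had means under 10 counts per library, from 0 to 4.67. mt-Tf, mt-Td and mt-Tk had no count in any library, and 3 counts, the limit that a count of 0 allows, would be 0.15 to 0.313 CPM. mt-Td and mt-Tk lie within the bounds of the stretch copied to chromosome 1, as do mt-Ts1, mt-Tg and mt-Tr, while mt-Tf does not. The chromosome 1 bases that face these tRNAs were not aligned on their own, so whether each is copied was not tested. The tRNA genes are only 59 to 75 bases long and counts carry no strand, so mature tRNA, uncut precursors and RNA of the opposite strand cannot be told apart. Most of them touch or overlap a neighbour, as mt-Te does. mt-Tp has no annotated gene after it, and mt-Tc has 32 bases before it. Fragments over more than 1 gene are left out by default, so the order and the strand split need not follow tRNA levels.

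**Figure D2:**
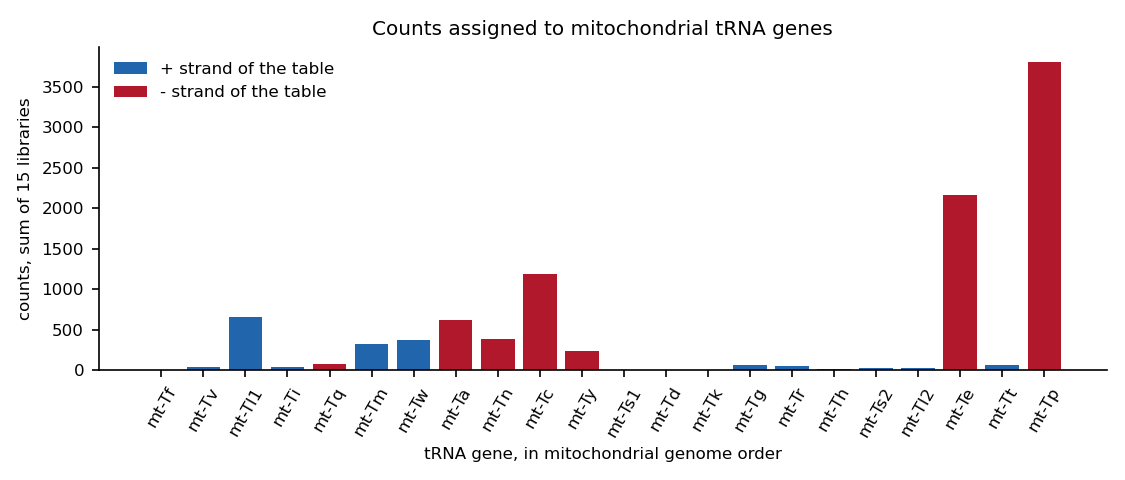
Counts assigned to each mitochondrial tRNA gene (y axis, sum of 15 libraries) in genome order (x axis), coloured by the strand in the table. mt-Tp (3804), mt-Te (2167) and mt-Tc (1184), all on the minus strand, stand highest.

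As a whole, mitochondrial genes held 2.33% of all counts over the libraries, and the share overlapped between Mertk genotypes. The share covers only fragments that were counted, so any left out at copied or overlapping bases are missing from it. It was 2.46, 1.88, 2.35 and 1.78% in Mertk KO 1 to 4 and 1.91, 2.36, 2.35 and 2.02% in Mertk WT 1 to 4. Each group held 2 libraries above 2.3% and 2 at 2.02% or less, so the groups overlapped. The mean log2 share was lower in Mertk KO (a difference of -0.04, two-sided exact permutation p = 0.714, n = 4 and 4, smallest p possible 0.0286). Counting error is small beside this spread, the 95% Wilson interval of Mertk KO 1, for example, being 2.45 to 2.47%. In bulk RNA, fewer mitochondria, less transcript in each and a change in the mix of cells cannot be told apart. Within the 3 and 3 libraries whose first tag number in the descriptions is 17, the difference in mean log2 share was 0.01 (exact permutation p = 0.9), and tag 21 holds 1 library of each genotype.

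**Figure D3:**
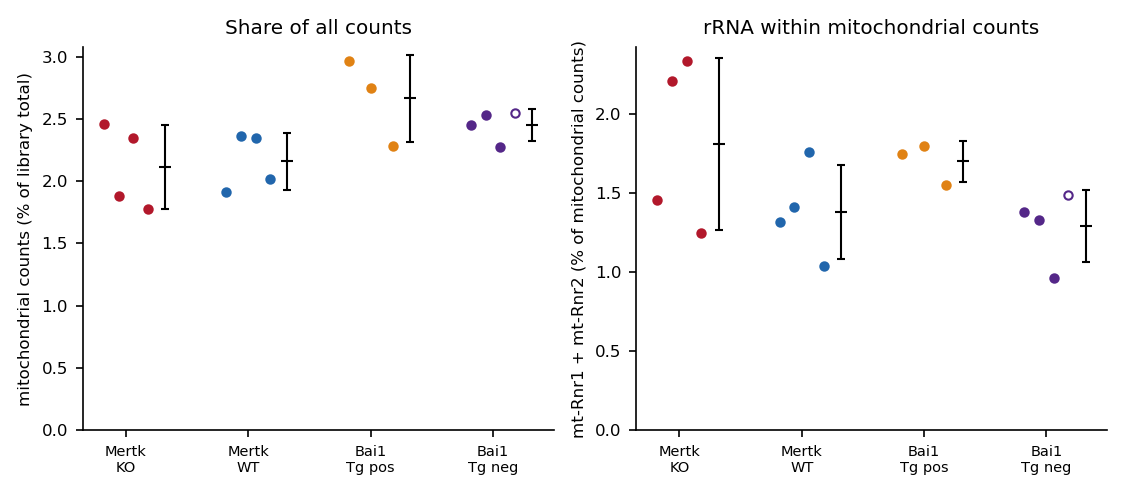
Mitochondrial counts as a percent of all counts (left y axis) and the 2 rRNAs as a percent of mitochondrial counts (right y axis) in the 4 groups (x axis), where a point is a library, a tick its group mean and a bar the SD, and the open symbol marks the library with the Bai1 Tg neg 4 label. Shares run from 1.78 to 2.97%, and Bai1 Tg pos 1 and 2 are highest.

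No mitochondrial gene passed the test between Mertk KO and Mertk WT. In the edgeR quasi-likelihood fit with Benjamini-Hochberg adjustment, 22 of the 37 members passed the filter on low counts (11 mRNAs, both rRNAs and 9 tRNAs), and 0 of them had an adjusted p under 0.05 or an unadjusted p under 0.05. DESeq2 called none of them either, against 0.459% of the genes it gave an adjusted p. Of all 13447 genes tested in edgeR, 0.223% passed and 750 had an unadjusted p under 0.05. The members' log2 fold changes lay above 0 for 12 and below 0 for 10, with a median of 0.06 against -0.001 over all genes, and that split turned with single libraries, from 8 above 0 without Mertk KO 3 to 20 without Mertk KO 4. By class, 2 mRNAs lay above 0 and 9 below (median -0.04), and 8 tRNAs above and 1 below (median 0.21). This tally and the later ones of mitochondrial members include mt-Co2, mt-Co3, mt-Atp6 and mt-Nd3, whose counts are uncertain through their copies. Genes cut from shared precursors are also not independent, so the tallies do not count separate observations. mt-Rnr1 and mt-Rnr2 lay above 0. For none of the 22 did the groups separate without overlap, against 3.52% of all genes.

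Values per library show the same for the mRNAs. mt-Co1 was at 8195, 6179, 7799 and 5832 CPM in Mertk KO 1 to 4 and at 6357, 7922, 7609 and 6905 CPM in Mertk WT 1 to 4. Its log2 fold change was -0.04 (adjusted p = 0.965, SE 0.113), with a 95% interval of -0.29 to 0.20. mt-Cytb was at 4954, 4074, 5039 and 3944 CPM and 4146, 4758, 4851 and 4150 CPM, a log2 fold change of 0.00 (adjusted p = 0.997, SE 0.095). Mertk KO 1 and 3 were high and Mertk KO 2 and 4 low in both genes, and the groups overlapped. For the complex I mRNAs mt-Nd1, mt-Nd2, mt-Nd4, mt-Nd5 and mt-Nd6 the log2 fold changes were -0.03, -0.04, -0.06, -0.07 and -0.01, and the 95% intervals of all 7 high mRNAs lay within -0.40 and 0.33.

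The rRNAs were more variable. mt-Rnr1 was at 81.7, 114, 140.3 and 58.7 CPM in Mertk KO 1 to 4 and at 55.8, 72.4, 86.8 and 48.5 CPM in Mertk WT 1 to 4, for a log2 fold change of 0.58 (adjusted p = 0.905, SE 0.305). Mertk KO 2 and 3 lay above every Mertk WT library and Mertk KO 4 below 2 of them, so the groups overlapped. mt-Rnr2 was at 273, 309, 421 and 161 CPM and 196, 263, 329 and 161 CPM, a log2 fold change of 0.29 (adjusted p = 0.918, SE 0.340). The tRNAs mt-Tp and mt-Te had log2 fold changes of 0.19 (adjusted p = 0.930, SE 0.252) and 0.21 (adjusted p = 0.943, SE 0.361), and those of the 7 other tested tRNAs lay between -0.08 and 0.98. Rod markers were below 0 in 14 of 15 members (median -0.68, 0 called by edgeR or DESeq2 and 0 at an unadjusted p under 0.05), and their summed levels overlapped. Endothelial markers summed to 7.02 to 10.9 CPM in Mertk KO and 12.2 to 19.9 CPM in Mertk WT, without overlap, with both tested members below 0 (Kdr -0.62, adjusted p = 0.545, and Egfl7 -0.74, adjusted p = 0.854). The melanocyte and Schwann cell markers summed to 1202 to 1370 CPM in Mertk KO and 1135 to 1188 CPM in Mertk WT, also without overlap. Tyr held most of these sums, at 837 ± 78.3 and 790 ± 44.7 CPM (log2 fold change 0.08, adjusted p = 0.914). Of the 4 tested members 3 lay above 0 and 1 below. How often sums of such lists separate was not counted, so neither separation is shown to be particular to its list. Of these 3 lists edgeR and DESeq2 called 0 members, with 3 at an unadjusted p under 0.05 in edgeR (Kdr, Egfl7 and Mlana). Of the Mueller glia list only Vim had an unadjusted p under 0.05 (log2 fold change 0.48, adjusted p = 0.426). The median of its 5 tested members was 0.03, and Glul was lowest at -0.14 (adjusted p = 0.893). The sums of that list overlapped, at 7215 to 7979 CPM in Mertk KO and 7356 to 8351 CPM in Mertk WT. Whether any of these markers bear on the mitochondrial values was not tested.

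**Figure D4:**
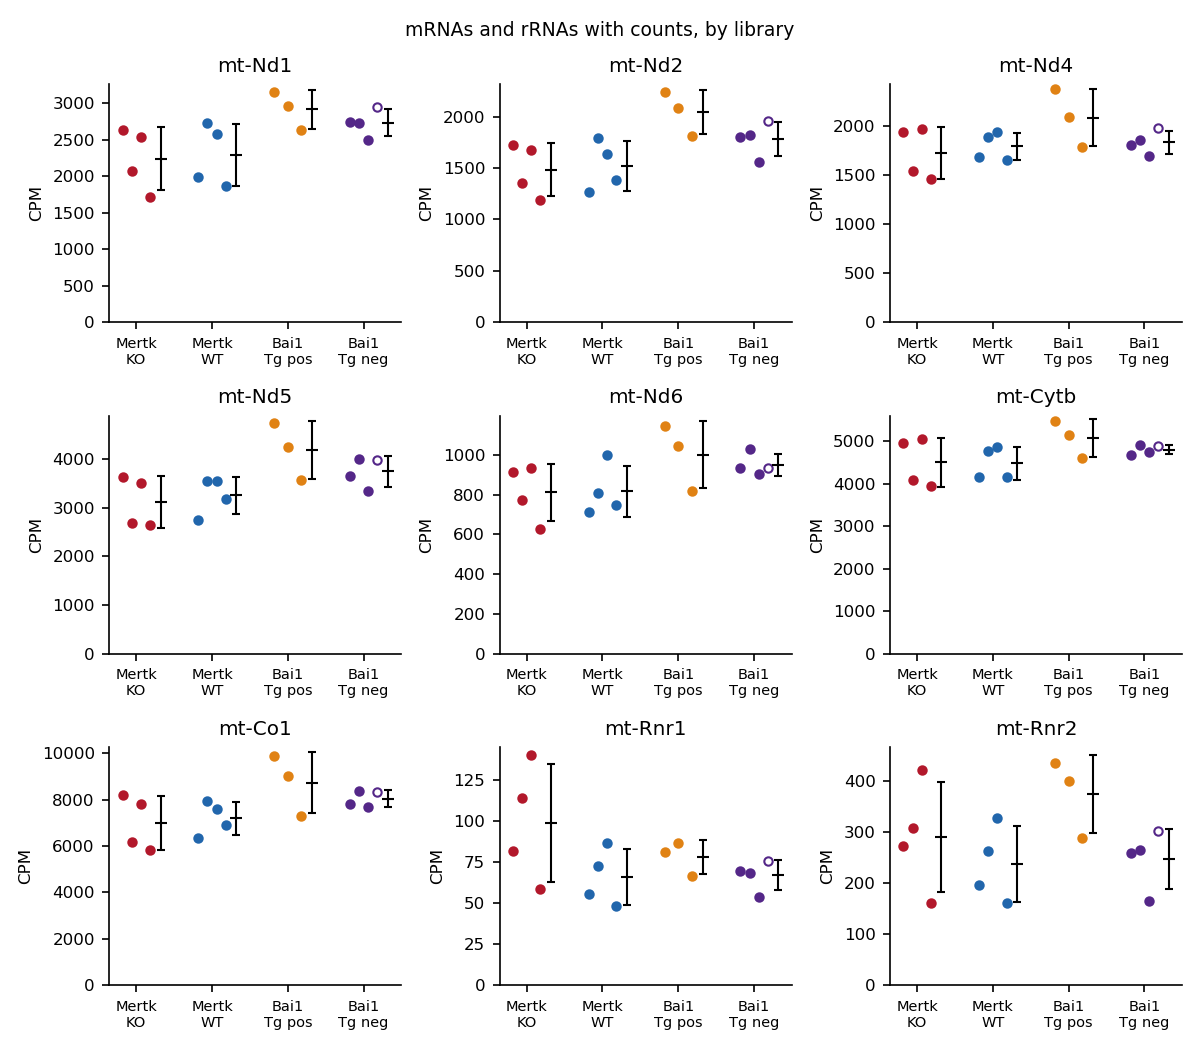
CPM (y axes, each from 0) of the 7 mRNAs with high counts and the 2 rRNAs in the 4 groups (x axis), where a point is a library, a tick its group mean and a bar the SD, and the open symbol marks the library with the Bai1 Tg neg 4 label. All 9 overlap between Mertk KO and Mertk WT, and mt-Rnr1 varies most in Mertk KO (58.7 to 140.3 CPM).

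In the Bai1 comparison no mitochondrial gene passed the test either, while most members lay slightly above 0. The mitochondrial share was 2.97, 2.75 and 2.28% in Bai1 Tg pos 1 to 3 and 2.45, 2.53, 2.27 and 2.55% in Bai1 Tg neg 1 to 4. Bai1 Tg pos 1 and 2 were the highest, and Bai1 Tg pos 3 lay among the Bai1 Tg neg libraries. The difference in mean log2 share was 0.11 (two-sided exact permutation p = 0.286, n = 3 and 4), where no p below 0.0571 is possible. Without the library labelled Bai1 Tg neg 4 it was 0.13 (exact permutation p = 0.3, smallest possible 0.1). Without Bai1 Tg pos 1 it was 0.03, and without Bai1 Tg pos 3 it was 0.22.

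edgeR called 0 of 22 members, with 5 at an unadjusted p under 0.05 (mt-Nd2, mt-Nd4, mt-Atp6, mt-Tc and mt-Tw), and DESeq2 called 0, against 0.141% of the genes it gave an adjusted p. In edgeR, over all 13855 genes 0.0144% passed and 718 had an unadjusted p under 0.05. The median log2 fold change was 0.18 against -0.0005 over all genes, with 20 members above 0 and mt-Co3 and mt-Nd3 below. It stayed between 0.13 and 0.28 when each library was left out in turn, with 18 to 21 members above 0. The groups did not overlap for 3 of the 22 (mt-Tc, mt-Tw and mt-Atp6), against 6.2% of all genes. With the library labelled Bai1 Tg neg 4 left out, 0.0369% of all genes and 0 of the 22 members passed in edgeR, 6 members had an unadjusted p under 0.05, and 4 did not overlap (mt-Rnr2, mt-Tc, mt-Tw and mt-Atp6), against 10.3% of all genes.

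The individual levels were as follows. mt-Nd2, a complex I subunit, was at 2239, 2078 and 1814 CPM in Bai1 Tg pos 1 to 3 and at 1801, 1816, 1560 and 1953 CPM in Bai1 Tg neg 1 to 4, a log2 fold change of 0.20 (adjusted p = 0.948, SE 0.085). mt-Co1 was at 9866, 9025 and 7284 CPM and 7817, 8372, 7668 and 8328 CPM, a log2 fold change of 0.12 (adjusted p = 0.958, SE 0.088). In both genes Bai1 Tg pos 1 and 2 exceeded all Bai1 Tg neg libraries while Bai1 Tg pos 3 did not. mt-Cytb, mt-Nd1, mt-Nd4, mt-Nd5 and mt-Nd6 had log2 fold changes of 0.08, 0.10, 0.19, 0.16 and 0.08.

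mt-Rnr2 was at 436, 401 and 289 CPM in Bai1 Tg pos 1 to 3 and at 258, 265, 164 and 303 CPM in Bai1 Tg neg 1 to 4. Its log2 fold change was 0.60 (adjusted p = 0.948, SE 0.246), and 0.72 (adjusted p = 0.988, SE 0.246) once the library labelled Bai1 Tg neg 4, the highest of the 4 with that label, was left out. mt-Rnr1 was at 78.2 ± 10.4 CPM (n = 3) and 66.9 ± 9.23 CPM (n = 4), a log2 fold change of 0.23 (adjusted p = 0.955, SE 0.117). mt-Tc was at 10.7, 10.05 and 9.24 CPM in Bai1 Tg pos and at 5.85, 5.60, 2.13 and 7.99 CPM in Bai1 Tg neg, a log2 fold change of 0.88 (adjusted p = 0.948, SE 0.322). Here too the library labelled Bai1 Tg neg 4 was the highest of the 4, and without it the log2 fold change was 1.14 (adjusted p = 0.988, SE 0.329). mt-Atp6 was at 3.34, 2.62 and 1.23 CPM and 0.924, 1.07, 0.355 and 1.10 CPM, or 5 to 44 counts per library over all groups, and is one of the genes whose counts are uncertain through their copies.

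The smooth muscle markers Myh11, Tagln and Acta2 were highest in Bai1 Tg pos 1 and 2, the libraries with the highest mitochondrial share. Des, of the same list, was not, at 0.294, 0 and 0 CPM in Bai1 Tg pos 1 to 3 and up to 0.355 CPM in Bai1 Tg neg. The share was higher in Bai1 Tg pos 1 and the list sum in Bai1 Tg pos 2. Myh11, the smooth muscle myosin, was at 28.2, 97.2 and 0.374 CPM in Bai1 Tg pos 1 to 3 against 0.355 to 1.31 CPM in Bai1 Tg neg. The smooth and skeletal muscle list of 7 genes summed to 279, 411 and 210.4 CPM in Bai1 Tg pos 1 to 3 and to 165 to 202 CPM in Bai1 Tg neg, and the skeletal muscle markers Ckm and Myh4 were at 0 in all 15 libraries. Rod markers were above 0 in 15 of 15 members (median log2 fold change 1.12, 0 called by edgeR with 1 at an unadjusted p under 0.05, and Pde6b by DESeq2), summing to 458, 830.2 and 271 CPM in Bai1 Tg pos 1 to 3. Their part in the mitochondrial values was not tested. Of the 3 muscle markers tested, edgeR called 0 (all 3 had an unadjusted p under 0.05) and DESeq2 called Myh11 and Acta2, the smooth muscle actin.

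**Figure D5:**
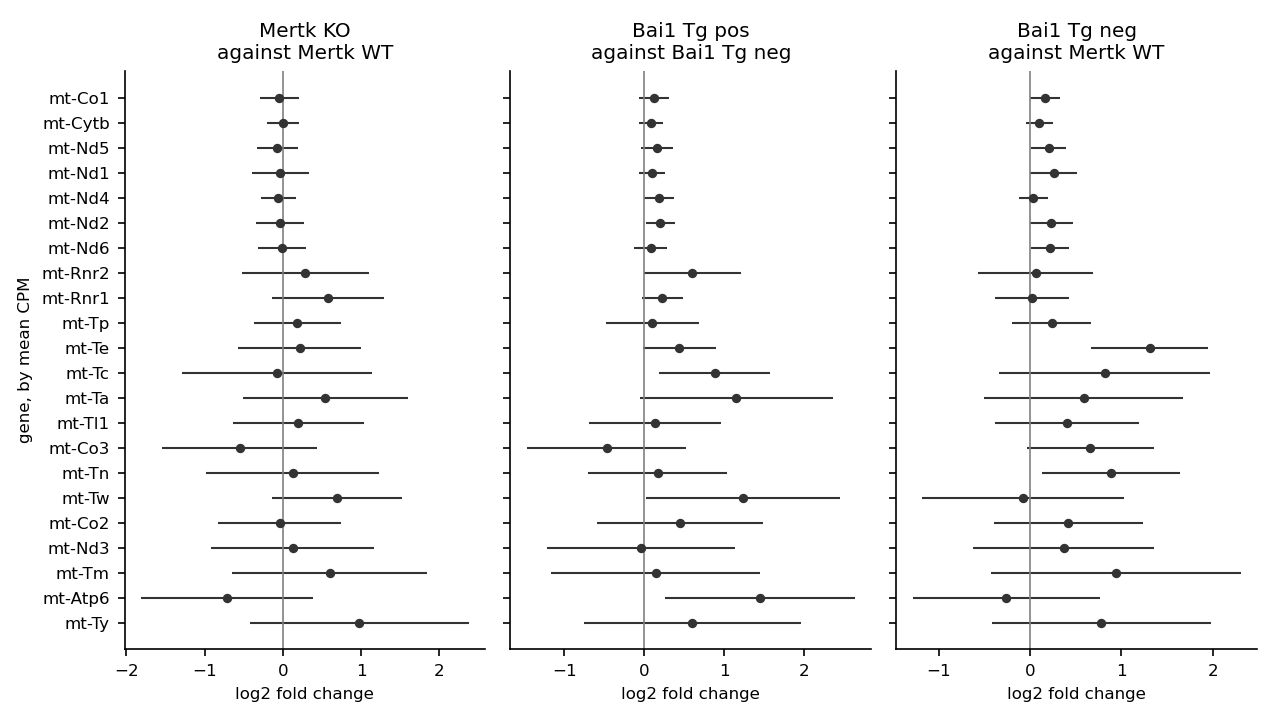
Log2 fold changes (x axes, which differ in range) of the 22 tested mitochondrial genes (y axis, ordered by mean CPM) in the 3 comparisons, with bars for the 95% interval of each estimate, unadjusted for the number of genes. The 7 abundant mRNAs lie near 0 with short intervals, and mt-Te stands at 1.31 between Bai1 Tg neg and Mertk WT.

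The Bai1 Tg neg and Mertk WT libraries, both wild type for Mertk and without a transgene by label, show how far these transcripts vary between the sets of libraries. All Bai1 libraries have 12 as their first tag number and all Mertk libraries 17 or 21, so set and tag cannot be told apart, and what the tags stand for is not stated in these sources. The mitochondrial share was 2.45 ± 0.127% in Bai1 Tg neg and 2.16 ± 0.23% in Mertk WT (n = 4 each), a difference in mean log2 share of 0.19 (exact permutation p = 0.0857, smallest possible 0.0286). edgeR called 0 of 22 members, against 0.431% of 13459 genes. An unadjusted p under 0.05 was found for 5 members (mt-Nd1, mt-Nd5, mt-Nd6, mt-Tn and mt-Te), against 1076 of the 13459 genes. DESeq2 called 1, mt-Te, against 1.53% of the 16313 genes it gave an adjusted p. Of the members 20 lay above 0 and mt-Tw and mt-Atp6 below, with a median log2 fold change of 0.25 against 0.002 over all genes, and 17 to 21 lay above 0 when a library was left out. The groups did not overlap for 2 of the 22 (mt-Tn and mt-Te), against 5.74% of all genes. Once Bai1 Tg neg 4 was left out, since Adgrb1 goes against its label, the Bai1 Tg neg share was 2.42 ± 0.134% (n = 3) and the difference 0.17 (exact permutation p = 0.171, smallest possible 0.0571). edgeR then called 0 of 22 members, against 0.204% of all genes, with 2 at an unadjusted p under 0.05 (mt-Tn and mt-Te). Of the members 17 lay above 0 and 5 below, with a median of 0.20, and 4 did not overlap (mt-Tn, mt-Ty, mt-Co3 and mt-Te), against 9.03% of all genes. This comparison and the 2 above share control libraries.

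mt-Te had the largest fold change of the tested members between these sets. It was at 11.5, 14.7, 9.08 and 13.5 CPM in Bai1 Tg neg 1 to 4 and at 4.64, 5.61, 7.01 and 1.98 CPM in Mertk WT 1 to 4, and its log2 fold change was 1.31 (adjusted p = 0.116, SE 0.292). Without the library labelled Bai1 Tg neg 4 it was 1.26 (adjusted p = 0.288, SE 0.329). Over the alternatives the adjusted p ranged from 0.000703 to 0.348, with 0.000703 in DESeq2 and 0.0373 without replicate 4 of Mertk WT, the lowest library. In Bai1 Tg pos 1 to 3 it was at 21.0, 17.2 and 11.4 CPM and in Mertk KO 1 to 4 at 4.89, 6.78, 7.89 and 3.18 CPM, so all 7 Bai1 libraries lay above all 8 Mertk libraries. The share of all genes that separates the 7 from the 8 was not counted, so the separation is not shown to be particular to mt-Te. The summed rod markers separated the same libraries. mt-Tn was at 2.31, 2.80, 1.42 and 1.75 CPM in Bai1 Tg neg and 0.874, 1.42, 1.27 and 0.833 CPM in Mertk WT, and its log2 fold change was 0.89 (adjusted p = 0.493, SE 0.351). The abundant mRNAs differed less, from 0.03 for mt-Nd4 to 0.26 (adjusted p = 0.618, SE 0.116) for mt-Nd1. mt-Rnr1 and mt-Rnr2 had log2 fold changes of 0.02 (adjusted p = 0.991, SE 0.178) and 0.06 (adjusted p = 0.987, SE 0.269), and of -0.04 and -0.05 once Bai1 Tg neg 4 was left out.

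Rod markers also separated these sets, with 15 of 15 log2 fold changes below 0 and a median of -3.86, and the rod disc protein gene Rom1 passed in edgeR (-0.54, adjusted p = 0.0265), where DESeq2 called all 15. Cone markers had 5 of 5 tested members below 0 (median -1.75, 0 called by edgeR with 4 at an unadjusted p under 0.05, and 4 of 8 called by DESeq2). Of the 8 macrophage markers 2 passed the filter on low counts, where Cd68 rose by 1.11 (adjusted p = 0.0262) while Csf1r had -0.07 (adjusted p = 0.858). In Bai1 Tg neg 3 of the 8 had no counts in any library. The macrophage sums overlapped, at 621 to 647 CPM in Bai1 Tg neg and 638 to 704 CPM in Mertk WT. The summed RPE markers overlapped, at 62930 to 69641 CPM in Bai1 Tg neg and 63479 to 71427 in Mertk WT. Without the library labelled Bai1 Tg neg 4, Rom1 no longer passed (-0.50, adjusted p = 0.106) and Cd68 did (1.22, adjusted p = 0.0294). Whether the cell makeup bears on the mitochondrial share or on mt-Te was not tested.

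Nuclear genes that make, process or work with mitochondrial transcripts were followed in 6 lists. edgeR called 0 of 94 tested members between Mertk KO and Mertk WT (5 at an unadjusted p under 0.05, lowest adjusted p = 0.74), 0 of 95 in the Bai1 comparison (6, lowest adjusted p = 0.719) and 0 of 95 between Bai1 Tg neg and Mertk WT (7, lowest adjusted p = 0.192). Over all genes tested, 750 of 13447, 718 of 13855 and 1076 of 13459 had an unadjusted p under 0.05 in edgeR, in the same order. DESeq2 called 0 in all 3. Polrmt, the mitochondrial RNA polymerase, was at 29.9 ± 3.04 CPM in Mertk KO against 25.9 ± 7.01 in Mertk WT, with log2 fold changes of 0.21 (edgeR adjusted p = 0.914, SE 0.191) there and -0.02 (adjusted p = 0.998, SE 0.215) in the Bai1 comparison. Polg, the mitochondrial DNA polymerase, had 0.13 (adjusted p = 0.905) and -0.06 (adjusted p = 0.977), and Mterf3, a negative regulator of mitochondrial transcription, -0.30 (adjusted p = 0.866) and 0.15 (adjusted p = 0.962). Of the transcription and replication list, 11 of 16 members lay below 0 in Mertk KO (median -0.06) and 13 of 17 in Bai1 Tg pos (median -0.09).

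RNA-processing and stability genes had 13 of 19 members below 0 in Mertk KO (median -0.06) and 11 of 19 in Bai1 Tg pos (median -0.02). Their most abundant members were Grsf1, an RNA granule protein at 107 CPM over all libraries, Fastk at 57.0 CPM and Lrpprc, which stabilises mitochondrial mRNAs, at 41.8 CPM. Among regulators of mitochondrial biogenesis, the coactivator Ppargc1a was at 77.6 ± 6.40 CPM in Mertk KO, 81.4 ± 3.28 in Mertk WT, 85.7 ± 0.407 in Bai1 Tg neg and 79.0 ± 7.57 in Bai1 Tg pos, with log2 fold changes of -0.07 (adjusted p = 0.914) and -0.11 (adjusted p = 0.958). Nuclear subunits of the complexes lay above 0 in 14 of 22 members in Mertk KO (median 0.008) and in 5 of 22 in Bai1 Tg pos (median -0.04). Atp5b, the catalytic subunit of ATP synthase and the most abundant of them, had 1160 ± 62.2 CPM in Mertk KO against 1198 ± 38.3 in Mertk WT, and its log2 fold change was -0.05 (adjusted p = 0.927). In the Bai1 comparison 9 of 11 tested mitochondrial mRNAs lay above 0, among them mt-Co2 and mt-Atp6, whose counts are uncertain through their copies. The 2 below 0, mt-Co3 and mt-Nd3, are uncertain in the same way. In the same comparison Atp5b had -0.02 (adjusted p = 0.994) and Cox4i1, a complex IV subunit, -0.04 (adjusted p = 0.981). Modification enzymes of mitochondrial rRNA and tRNA and general mitochondrial proteins had medians of -0.02 each in Mertk KO, and of 0.04 and 0.01 in Bai1 Tg pos.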

How the data were processed

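RPE RNA-seq of 15 libraries was used. The authors deposited raw fragment counts per gene, made with featureCounts 1.5.0 per the file headers, which list paired fragments summed over exons and no option for multi-mapping or overlapping fragments or for strand. The authors aligned reads to GRCm38 with STAR, per the submitters' processing notes, with no STAR version in the sources used here. Per the labels' protocols, libraries were TruSeq RNA after poly(A) selection. Groups come from the titles. The table holds 46078 genes, and symbols were matched by Ensembl identifier for 45143. All 37 mitochondrial coordinates equalled GENCODE M21. The members and gene lists were chosen with earlier results of these data known.

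Levels are CPM from TMM factors over 15 libraries, as mean ± SD, per kilobase where genes are compared. Each comparison was fitted on its own groups with edgeR 4.0.16 (R 4.3.3; filterByExpr with a minimum count of 10, robust quasi-likelihood F test, two-sided, Benjamini-Hochberg over all genes tested, threshold 0.05). Adjusted p-values are from this test unless DESeq2 1.42.0 is named. On simulated counts with 200 changed genes the fits recovered 184 (Mertk), 183 (Bai1) and 190 (Bai1 Tg neg against Mertk WT). The simulation gave all genes the same spread and all changed genes the same size of change, up or down. The recovery therefore does not say how often a change would be found in members that vary more, such as the rRNAs and tRNAs. Shares were compared as log2 values by exact permutation of libraries. Nuclear copies were searched with blastn 2.17.0 in GENCODE M21 transcripts, with minima of 95% identity and 150 aligned bases. Replicate numbers were not treated as pairs, since same-numbered libraries did not deviate together in every pair.

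Members with a mean of at least 10 counts per library are given in full, others as ranges. Listed genes are named if past the threshold or among the 3 most abundant, and copies if among the 6 with most counts. The muscle markers Myh11, Ckm, Myh4, Acta2, Tagln and Des, the rod marker Pde6b, and Gm28439, Gm28438, Csf1r and Vim, were named after their values were seen. Wilson intervals and floors cover counting error only, and the intervals of log2 fold changes come from the edgeR fit. Alternatives were DESeq2, RLE size factors, size factors without mitochondrial counts, no low-count filter, all libraries in 1 fit, replicate number or tag number as a term, other sums and denominators of the share, and leaving out each library.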

Additional observations from a re-analysis of the deposited data

Results flagged for a closer look

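In the groups of 4 libraries, 2 of 72 sets of values held a library far from the other 3, where chance gives about 1 in 20. The sets were 66 of the CPM of 22 members and 6 of the mitochondrial and rRNA shares. mt-Tl1, a leucine tRNA, was at 4.08 CPM in Mertk KO 3 and at 2.09 to 2.24 CPM in the rest of that group. mt-Nd3, a complex I subunit whose counts are uncertain through its chromosome 1 copy, was at 1.85 CPM in Mertk WT 2 and at 0.937 to 1.00 CPM in the rest of that group.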

How the results depend on the processing

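The number of genes past the threshold moved with the settings: between Mertk KO and Mertk WT it was 30, with 75 in DESeq2, 69 without the low-count filter and 16 to 31 when a library was left out. In the Bai1 comparison it was 2, with 26 in DESeq2, 85 without the filter, 0 with all 15 libraries in 1 fit and 0 to 54 when a library was left out. Between Bai1 Tg neg and Mertk WT it was 58, with 249 in DESeq2, 138 without the filter and 13 to 89 when a library was left out. With the replicate block, for numbers that were not treated as pairs in the main fits, the counts were 24, 4 and 106. Mitochondrial members past it numbered 0 in all 15 Mertk alternatives. In the Bai1 comparison 1, mt-Rnr2, passed with the replicate block (log2 fold change 0.73, adjusted p = 0.00977, where other alternatives reached up to 1.00) and 0 otherwise. Between Bai1 Tg neg and Mertk WT, 1 passed in DESeq2 and 0 to 1 when a library was left out, mt-Te each time, as given above. Of 924 member values under alternatives, 62 had the other sign (38, 11 and 13 in the 3 comparisons), none of them past the threshold in either fit. Of 39 share values, 6 had the other sign, all between Mertk KO and Mertk WT. With only rRNAs and tRNAs summed, the Bai1 difference in mean log2 share was 0.52 (exact permutation p = 0.114, n = 3 and 4) instead of 0.11. With 3 or 4 libraries a group, members at a few counts cannot show small changes.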

Other observations

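The ratio of mt-Rnr2 to mt-Rnr1 counts, looked at after the values were seen and so given without a test, did not overlap between the Bai1 groups. Both rRNAs are cut from the same precursor, and neither has an annotated nuclear copy by the search used here. The ratio was 5.35, 4.62 and 4.34 in Bai1 Tg pos 1 to 3 and 3.71, 3.87, 3.05 and 4.01 in Bai1 Tg neg 1 to 4, with the library labelled Bai1 Tg neg 4 highest of its group. In the Mertk libraries it was 3.34, 2.71, 3.00 and 2.74 in Mertk KO 1 to 4 and 3.52, 3.64, 3.79 and 3.31 in Mertk WT 1 to 4, where Mertk KO 1 alone reached the Mertk WT range.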
